A study of Drosophila melanogaster with 60 samples.

Results

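A set of 44 transcripts that were higher in wild type males than in wild type females and in males without a germline, and whose gain in wild type males by 48 h stayed under a limit, is described here. The members were chosen by measured values, with a rule of 3 limits. Their log2 ratio, averaged over the 5 time points, was higher in wild type males than in wild type females by 1 or more, and higher than in males without a germline by 1 or more. Their mean in wild type males at 48 h exceeded that at 0 h by less than 0.8. Of 15744 probes, 12342 had a value on any array, and 3213 had values on 2 or more of the 3 arrays in every group that the rule compares. Those 3213 were judged, and the 44 members come from 44 genes. The 7 probes that the rule names for removal all exceeded the limit on the 48 h change, by which they would have been left out in any case. In all, 104 probes met both limits on the differences but gained 0.8 or more by 48 h, and they serve here for comparison as the rising probes. Any of the 7 named probes that met both limits are among these 104.

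RNA of whole animals was hybridized to 60 two-colour oligonucleotide arrays, each against a common reference RNA from male and female Canton S pupae of all stages. A log2 ratio of 0 thus means the level of that mixture, and 1 log2 unit is a change by a factor of 2. Wild type males, wild type females, tud males and tud females were each sampled 5 times, 0, 24, 48, 72 and 96 h after the puparium formed (APF). This gave 20 groups, and each has 3 arrays, with a pool of pupae on each. Wild type was the Canton S strain. The tud progeny were born to mothers homozygous for tud1 bw1 sp1 that had been mated to y, w males carrying the transgene P[w+cM UBI-GFP] together with a P [FRT(whs)] insertion, and these progeny develop without germ cells. Germline, strain and maternal genotype therefore differ together between wild type and tud progeny, and their effects cannot be told apart. Tud females expressed the GFP, by which they were told from tud males, so these sexes also differ in that transgene. Every value is of a whole animal, so that fewer cells of a type and less RNA per cell cannot be told apart either. Nothing states how the pools of a group differ beyond their replicate number, and p-values measure only the spread between these samples.

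In the fly the germ cells are set aside by the maternal germ plasm, which requires Tudor. At puparium formation the testis already holds spermatogonia and growing spermatocytes, and meiosis and the shaping of the spermatid tail and nucleus follow during pupal life. Spermatocytes make many mRNAs well ahead of use and store them, protamine mRNA among them, whereas the ovary of the pupa still has few developed egg chambers.

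The number of probes with a value ran from 3954 to 10236 per array. The members had values in 652 of 660 cases in wild type males (98.8%), 601 in wild type females (91.1%), 603 in tud males (91.4%) and 553 in tud females (83.8%). Only 2 members had a value on all 60 arrays. The roX1 transcript, an RNA that males make in the soma for X chromosome dosage, was at 0.30 to 1.88 in wild type males and -6.12 to -2.45 in wild type females, which sets the direction of the ratio. Testis RNA was checked with beta-Tubulin at 85D, the tubulin of the sperm tail, which had a value on 27 of 30 tud arrays. It stood apart on tud male 48 h replicate 1 at -2.96, on tud male 96 h replicate 2 at -3.31 and on tud female 72 h replicate 3 at -1.77, against -8.51 to -5.56 on the other 24 arrays. Very low ratios may lie at the background of the array, so the size of the largest differences is not firm.

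**Figure D1:**
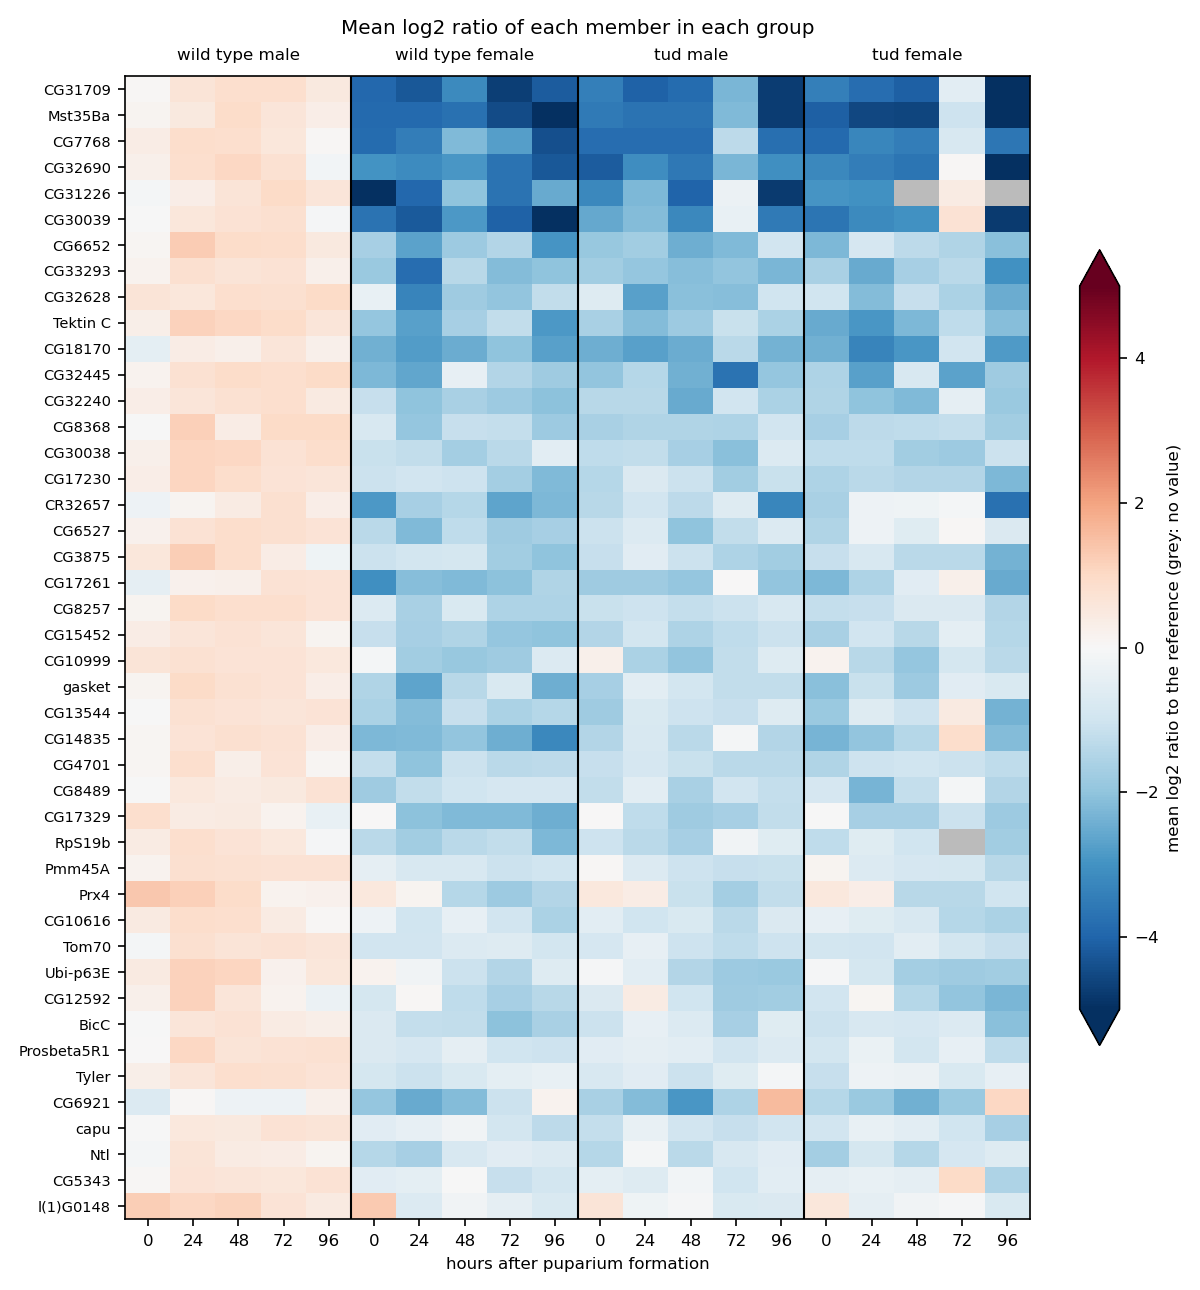
Mean log2 ratio to the common reference of each of the 44 members (down the page, ordered by the smaller of the 2 differences used by the rule) in the 4 kinds of animal at 5 hours APF, with blue below and red above the reference and grey where no array gave a value. Wild type males lie near or above 0 throughout, and most other cells are blue, with lighter cells at 72 h in tud progeny.

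The rule itself set the gap between wild type males and the others, which is given without a test. The median over the members was 2.07 for wild type males minus wild type females (1.05 to 4.85), and 1.74 for wild type males minus tud males (1.09 to 4.24). The 48 h minus 0 h change in wild type males had a median of 0.57 and ran from -0.40 to 0.79. It was 0.5 or more in 27 of 44 members, so most of the members did gain, within the limit, and 3 had a lower mean at 48 h. Just inside the limit of 0.8 were CG6652 and Mst35Ba, both at 0.79, and just outside it CG8042 and CG18662, both at 0.81. At the limit on the sex difference l(1)G0148 (1.05) and cappuccino (1.15) were inside, against CG9895 (0.94) and CG17030 (0.93) outside. At the limit on the difference from tud males CG5343 (1.09) and l(1)G0148 (1.13) were inside, against CG13176 (0.998) and CG7182 (0.96) outside.

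Whether these genes were already on in males at 0 h was checked on the 0 h arrays alone, again as a description, since those arrays were part of the rule. The 0 h mean in wild type males lay between -0.68 and 1.34 with a median of 0.16, and was above the reference in 31 of 44 members. On these 3 arrays the median of all probes was 0.16, 0.13 and 0.06, and that of the members 0.31, 0.21 and -0.04. A level above the reference thus does not set the members apart from other probes. The 0 h mean in wild type males was higher than in wild type females and than in tud males in 43 members. The difference was 1 or more against wild type females in 30 members, against tud males in 32, and against both in 28. The medians were 1.45 and 1.34. The exception was l(1)G0148, the Cdc7 kinase that starts DNA replication, whose arrays read 1.32, 1.30 and 1.02 in wild type males, against 1.40, 1.36 and 1.15 in wild type females and 0.54 and 0.72 in tud males. Its wild type male and female values overlapped at 0 h and parted only at later hours, so the name of the set does not describe it. Differences were also small at 0 h for Phosphomannomutase 45A (Pmm45A, Pgm2a in RefSeq), a phosphosugar mutase, at 0.64 against wild type females and 0.12 against tud males, and for Ubiquitin-63E, a polyubiquitin gene, at 0.27 and 0.49. A difference at 0 h was not particular to the members. At that hour the array median of the rising probes averaged -0.23 in wild type males, -2.85 in wild type females and -2.66 in tud males. That of the members averaged 0.16, -1.27 and -1.225 in the same order.

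**Figure D2:**
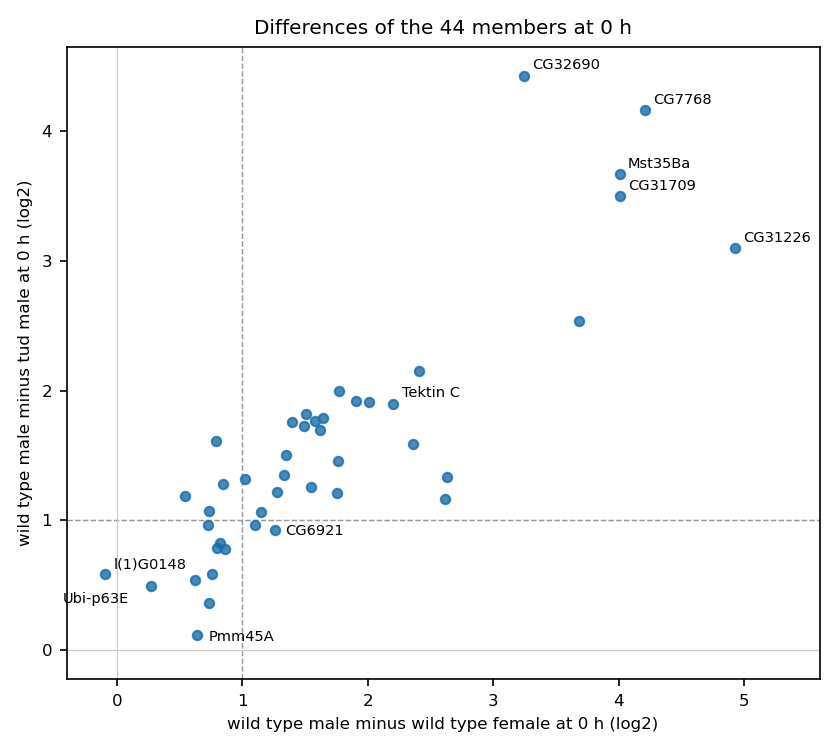
Difference at 0 h APF of each of the 44 members, with wild type male minus wild type female across and wild type male minus tud male up the page (group means of up to 3 arrays, log2), and dashed lines at 1. Of the 44 points 28 lie above both dashed lines and 43 above 0 on both axes, with l(1)G0148 just left of 0.

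Male-specific-transcript-35Ba (Mst35Ba, ProtA in RefSeq) encodes a protamine, which packs DNA in the sperm head. In wild type males it read 0.14, 0.48 and -0.21 on the 0 h arrays, 0.17, 0.32 and 0.96 on the 24 h arrays, 1.03, 0.71 and 1.03 on the 48 h arrays, 0.49, 0.48 and 0.87 on the 72 h arrays, and 0.39, 0.29 and 0.37 on the 96 h arrays. Over 15 arrays each, wild type females ran from -6.33 to -3.43 (median -3.96), tud males from -6.24 to -1.27 (median -3.35) and tud females from -6.67 to -0.82 (median -4.37). Every wild type male array was thus above every other array, already at 0 h. A near-identical gene, Mst35Bb, may share its signal.

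Tektin C, a microtubule protein of the flagellum, gave 0.48, 0.53 and -0.18 in wild type males at 0 h, against -2.41, -1.39 and -1.99 in wild type females and -0.84, -2.32 and -1.71 in tud males. Over all hours wild type males ran from -0.18 to 1.23 (median 0.92), wild type females from -3.29 to -0.93 (median -1.99), tud males from -2.62 to -0.84 (median -1.71) and tud females from -3.15 to -1.02 (median -2.23). The ranges did not overlap. The same holds for Mst35Ba and 10 further members, 12 in all, against 2.21% of the 3213 judged probes. The lowest wild type male array was above the highest of wild type females in 30 members (3.21% of the judged probes), of tud males in 18 (2.86%) and of tud females in 18 (3.02%). Since the rule chose on these differences, the counts are a description, and nothing is read from how they compare with the judged probes.

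Gaps as wide were seen in genes that carry a CG number only. CG31709 ran from -0.05 to 1.41 in wild type males (median 0.58), against -5.93 to -2.82 in wild type females (median -4.01) and -7.00 to -2.26 in tud males (median -3.92). CG7768 ran from -0.03 to 1.29 in wild type males (median 0.54), against -5.11 to -1.02 in wild type females (median -3.40) and -5.24 to 0.66 in tud males (median -3.51). One tud male array of CG7768, replicate 1 at 72 h, reached into the wild type male range. CG32690, a long non-coding RNA in RefSeq, ran from -1.09 to 1.32 in wild type males (median 0.58), against -5.37 to -1.90 in wild type females (median -3.17) and -4.75 to -2.07 in tud males (median -3.10). CG32628 (Nna1), of a carboxypeptidase family, stayed near 1 level in wild type males, at 0.64, 0.74 and 0.60 at 0 h and 0.98, 1.02 and 0.91 at 96 h, with 15 arrays between 0.15 and 1.07. Its wild type female arrays read -0.45, -0.17 and -0.46 at 0 h and -3.41, -3.51 and -3.02 at 24 h, so that the gap between the sexes widened after 0 h.

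As a group the members were at their lowest at 0 h in wild type males. The median over the members on each array averaged 0.16 ± 0.18, 0.78 ± 0.20, 0.75 ± 0.07, 0.69 ± 0.06 and 0.47 ± 0.09 at the 5 hours in turn (SD, n = 3 each). The corresponding means for the rising probes were -0.23, 0.95, 1.04, 0.78 and 0.62. By the mean of 3 arrays, the highest hour was 24 h for 21 of 44 members, 72 h for 8, 48 h for 7, 96 h for 5 and 0 h for 3. The lowest was 0 h for 30 members and 96 h for 11. The 0 and 48 h means entered the rule, and no share of the judged probes is set beside these counts. They are a description, and do not show that these hours are particular to the members. In the other animals the array median of the members averaged between -1.88 and -0.95 in every group.

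**Figure D3:**
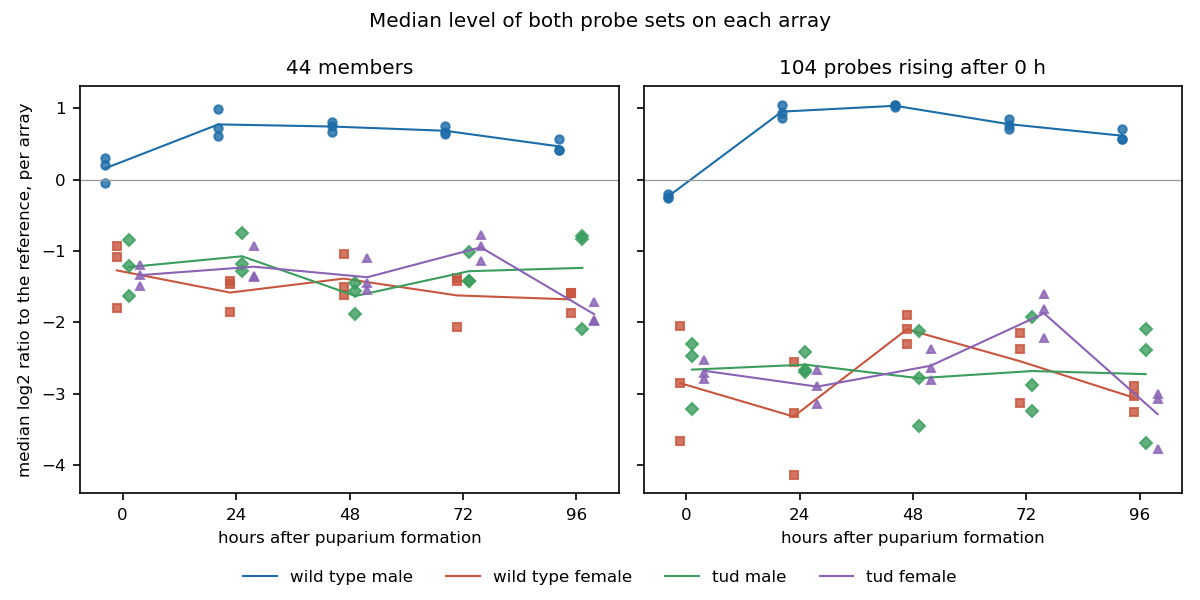
Median log2 ratio over the 44 members (left) and the 104 rising probes (right) on each of the 60 arrays by hours APF, with 1 point per array and lines through the mean of 3 arrays. The members average 0.16 in wild type males at 0 h and 0.78 at 24 h, against -0.23 and 0.95 for the rising probes, and the other 3 kinds of animal stay well below 0.

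Changes over time in wild type males that the rule did not use were tested with limma, in a fit of all 60 arrays with Benjamini-Hochberg adjustment over all probes tested and a threshold of 0.15. All tests are two-sided. The late change compares the mean of 72 and 96 h with the mean of 0 and 48 h, and leaves the 48 h minus 0 h difference out of account. It was past the threshold in 15 of 44 members, 8 higher and 7 lower, against 64.7% of all 5049 probes tested (29.0% higher, 35.7% lower). The median change was 0.12 in the members, -0.04 in all probes tested and 0.33 in the 104 rising probes, of which 23 were called. Any change other than that between 0 and 48 h was called in 12 of 44 members, against 76.1% of 4962 probes, and in 31 of 104 rising probes. The called share of the members lay below that of all probes, a difference that was not tested.

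The median standard error (SE) of a member's late change was 0.29 in the fit of all arrays, which takes the spread of a probe over all groups, including those where members are weak. Fitted on the 15 wild type male arrays alone it was 0.14, and 26 members were then called, 17 higher and 9 lower, against 71.6% of all probes. Any change was then called in 30 of 44 members, against 84.5%. The 15 and 12 members called with all arrays were among these. In both fits, then, a smaller share of the members was called than of all probes for the late change and for any change.

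The late gains were led by CG17261 and CG18170, beside CG8368, whose membership rests on 1 array and whose gain was 0.50 without it. CG17261 read -0.42, -0.41 and -0.49 on the 0 h arrays, 0.05, -0.33 and 0.98 on the 24 h arrays, 0.29, 0.17 and 0.30 on the 48 h arrays, 0.74, 0.43 and 1.04 on the 72 h arrays, and 0.61, 0.52 and 0.92 on the 96 h arrays. All 6 late arrays were above the 6 of 0 and 48 h, and the late change was 0.80 ± 0.28 (SE; limma, adjusted p = 0.0129). CG18170 was at -0.50, -0.61 and -0.41 on the 0 h arrays and 0.23, 0.28 and 0.21 on the 48 h arrays, against 0.70, 0.59 and 0.56 on the 72 h arrays and 0.22, 0.35 and 0.18 on the 96 h arrays. Its late change was 0.57 ± 0.20 (SE; limma, adjusted p = 0.014), and its 96 h arrays overlapped those of 48 h.

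CG8368 (Rexo5), an RNA exonuclease, changed by 0.79 ± 0.29 (SE; limma, adjusted p = 0.0185). In wild type males it read -0.15, 0.02 and 0.11 on the 0 h arrays, 1.00, 1.36 and 1.23 on the 24 h arrays, 0.98, -0.78 and 0.87 on the 48 h arrays, 1.15, 0.93 and 0.81 on the 72 h arrays, and 0.78, 1.05 and 1.03 on the 96 h arrays. One array, replicate 2 at 48 h, lay far below its fellows. With it the 48 h mean exceeded that at 0 h by 0.37, and without it by 0.93, which is past the limit of 0.8, so that CG8368 is a member through this array. Without it the late change was 0.50 and kept its call, and the call at 24 h was lost. In RefSeq the gene overlaps zpg, which encodes a germline gap junction protein, and 24 of the 44 members overlap some other gene.

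Smaller gains passed the threshold in CG6921 (bond), a fatty acid elongase that spermatocytes need to divide (0.48 ± 0.25), cappuccino, an actin-nucleating formin (0.45 ± 0.22), CG8489 (soti), an inhibitor of a ubiquitin ligase during spermatid individualization (0.41 ± 0.23), Translocase of outer membrane 70 (Tom70), a mitochondrial import receptor (0.40 ± 0.21), and Pmm45A (0.25 ± 0.12; all SE). Their adjusted p in limma ran from 0.0748 for Pmm45A to 0.134 for CG8489. All 5 calls were lost without some single array, that for CG8489 without any of 9, CG6921 without any of 5, Tom70 without any of 4, Pmm45A without any of 3 and cappuccino without 1. The change was 0.24 for Tom70 without wild type male 96 h replicate 3 and 0.31 for CG6921 without wild type male 0 h replicate 1. After quantile normalization the calls for CG8489 and Pmm45A were lost too (adjusted p in limma 0.152 and 0.289).

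The late losses were led by thioredoxin peroxidase 2 (Prx4 in RefSeq), a peroxiredoxin of the secretory pathway. It read 1.64, 1.55 and 0.84 on the 0 h arrays, 0.89, 1.33 and 1.39 on the 24 h arrays, 0.93, 0.82 and 1.06 on the 48 h arrays, -0.25, 0.55 and 0.29 on the 72 h arrays, and 0.14, 0.06 and 0.43 on the 96 h arrays. No late array reached the lowest of the earlier ones, and the change was -0.94 ± 0.25 (SE; limma, adjusted p = 0.0018). The gene was also lower late in wild type females, tud males and tud females, by means of -1.18, -1.16 and -0.76 on the log2 scale, and its change over time was called in each of them.

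CG3875 (nsr), an RNA-binding protein that acts in spermatogenesis, read 0.71, 0.58 and 0.38 on the 0 h arrays, 0.75, 1.44 and 1.54 on the 24 h arrays, 0.89, 0.81 and 0.91 on the 48 h arrays, 0.53, 0.09 and 0.45 on the 72 h arrays, and -0.26, -0.19 and -0.14 on the 96 h arrays. With CG12592 it was called in all 3 contrasts of wild type males, at -0.63 ± 0.17 late (SE; limma, adjusted p = 0.00119), 0.53 ± 0.20 at 24 h (adjusted p = 0.076) and -0.55 ± 0.23 for 96 h minus 72 h (adjusted p = 0.0557). Its 96 h arrays were below all others. CG17329 (-0.72 ± 0.32), l(1)G0148 (-0.58 ± 0.29), CG12592 (-0.48 ± 0.17), CG10616 (-0.40 ± 0.15) and Ubiquitin-63E (-0.35 ± 0.14; all SE) fell as well, with adjusted p in limma from 0.0168 for CG12592 to 0.0885 for l(1)G0148. Repeats within polyubiquitin and its paralogs may share signal with the Ubiquitin-63E probe.

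At 24 h, set against the mean of 0 and 48 h, 6 of 44 members were called and all 6 were higher, against 22.6% of 6100 probes (8.85% higher, 13.7% lower). The median was 0.31 in the members, 0.01 in all probes and 0.55 in the rising probes, and the value was above 0 in 40 of 44 members. The 6 were CG8368 (1.02 ± 0.35), CG12592 (0.72 ± 0.20), CG3875, CG30038 (0.43 ± 0.18), Ubiquitin-63E (0.42 ± 0.17) and Pmm45A (0.34 ± 0.15; all SE), with adjusted p in limma from 0.0099 to 0.12. CG30038 is MCPH1 in RefSeq, a microcephalin that acts in the cell cycle. In the fit of wild type male arrays alone 19 were called, again all higher, against 29.6% of probes, and Tektin C, gasket, a testis paralog of the kinase GSK3, and Prosbeta5R1 were then among them. Each of the 6 calls was lost without some single array, that of CG8368 without wild type male 48 h replicate 2 among others. The count of 6 was 1 without wild type male 24 h replicate 2 or replicate 3, and 3 without wild type male 48 h replicate 3.

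Over the last day, 96 h minus 72 h, 2 members were called and both were lower, CG3875 and CG12592 (-0.48 ± 0.26, SE; limma, adjusted p = 0.13), against 52.8% of 5760 probes (26.0% higher, 26.8% lower). The median was -0.22 in the members and -0.04 in all probes, and the value was below 0 in all but 11 members. With wild type male arrays alone 15 were called, 14 of them lower, against 55.8% of probes. Ribosomal protein S19b (RpS19b), a germline paralog of a small subunit protein, was among the 14 at -0.58 ± 0.20 (SE; limma, adjusted p = 0.0304). Its arrays read 0.34, 0.64 and 0.58 at 72 h and -0.20, 0.08 and -0.05 at 96 h, and did not overlap. The count of 2 was 1 without any 1 of 5 wild type male arrays, namely 72 h replicates 1 and 3 and 96 h replicates 1, 2 and 3.

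Gene lists by role, drawn up with earlier results of these data known and from names in the study's own lists, place the members among related genes. Of 15 probes for the sperm tail and sperm chromatin, 2 are members, Mst35Ba and Tektin C. In wild type males 1 of the 15 was called late, with a median of 0.22, and neither member was. Of all probes tested 64.7% were called late, 29.0% higher and 35.7% lower, and no list was tested against that share. Of 10 probes for mitochondrial import and metabolism only Tom70 is a member. Of the 9 tested 4 rose late, with a median of 0.40, among them Tom70, whose call was lost without any of 4 single arrays. Of 12 probes for germline RNA binding and translation Bicaudal C, an RNA-binding protein best known from the ovary, and RpS19b are members, and 4 of the 12 rose late and 1 fell (median 0.32).

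Prosbeta5R1, a testis paralog of a catalytic proteasome subunit, was the exception in its list. Of 13 proteasome probes 12 fell late in wild type males, with a median over the 13 of -0.62, against 35.7% of all probes called lower. Prosbeta5R1 was the one not called in the fit of all arrays, at 0.42. With wild type male arrays alone Prosbeta5R1 was called higher, at 0.42 ± 0.15 (SE; limma, adjusted p = 0.0302). It read 0.09, 0.03 and -0.06 on the 0 h arrays, 1.09, 0.68 and 1.36 on the 24 h arrays, 0.67, 0.49 and 0.78 on the 48 h arrays, 0.82, 0.61 and 0.79 on the 72 h arrays, and 0.42, 1.28 and 0.61 on the 96 h arrays. The difference between it and the other subunits was not tested. Among lists for other cell types none held a member. The 3 probes of the larval fat body fell late in wild type males by a median of -2.31, and the 1 tested probe of the male soma list changed by -0.59. Their part in the members' changes was not tested.

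Change over time was also tested where there is no male germline. It was called in 31 of 44 members in tud males, against 89.9% of 3907 probes, and in 33 of 44 in wild type females, against 89.3% of 4315. In tud females, none of whose arrays the rule used, 28 members had enough values to be tested and 24 of these were called, against 92.6% of 3735. The 16 untested members lacked values in 1 or more tud female groups, so the 28 are not the whole set. Each of these shares is below that of all probes, a difference that was not tested.

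The hour of the highest mean differed between the kinds of animal. Among the 42 members with a mean at every hour in tud females, 20 were highest at 72 h, against 15.9% of the 3149 judged probes with such means, and for 6 of the 20 the 72 h mean rests on 1 array. Among 44 members in tud males 13 were highest at 72 h, against 13.4% of the judged probes, and 13 at 24 h, against 29.7%. In wild type females 17 were highest at 48 h, against 19.8%, and 13 at 0 h, against 21.6%. These shares were not tested. Among members with 3 values at 72 h, all 3 were above every other tud female array in 5 of 20 (25.0%), against 5.12% of the judged probes. These 5 were Mst35Ba, CG32690, Tektin C, CG18170 and CG32240. The count was 3 of 31 in tud males (9.68%), namely CG7768, CG18170 and CG17261, against 4.38% of the judged probes. It was 0 of 30 in wild type females, against 9.23%, and 1 of 42 in wild type males, against 7.16%.

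Mst35Ba read -0.82, -1.08 and -1.15 in tud females at 72 h, against -6.67 to -3.75 on the 12 tud female arrays of other hours, and -1.27, -2.40 and -2.97 in tud males at 72 h. In wild type females at 72 h it read -5.09, -3.80 and -4.52, within the range of the other hours. CG30039 read 1.35 and 0.08 on the 2 tud female arrays with a value at 72 h, against -5.66 to -1.58 at other hours. CG32690 read 1.42, 0.14 and -1.38 there, against -5.96 to -2.76. At 72 h tud females thus reached into the wild type male range for CG30039 and CG32690, and stayed below it for Mst35Ba.

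Contrasts of 72 h with the mean of the other 4 hours were added after these values had been seen. In tud females they called 14 of 28 members, 7 higher and 7 lower, against 58.1% of probes (28.2% higher, 29.9% lower), and 47 of the 87 rising probes tested, 42 of them higher. The highest were CG30039 (4.38 ± 0.81), Mst35Ba (3.67 ± 0.43), CG7768 (2.78 ± 0.61), CG17261 (1.99 ± 0.37), CG18170 (1.91 ± 0.22), CG32240 (1.45 ± 0.25) and Tektin C (1.19 ± 0.25; all SE), and the lowest was thioredoxin peroxidase 2 (-1.01 ± 0.29). In tud males 26 of 44 were called, 13 higher and 13 lower, against 60.8% (25.4% higher, 35.4% lower), and the 7 genes that were higher in tud females were all among these 13. In wild type females 13 of 44 were called, 5 higher and 8 lower, against 55.6% (28.6% higher, 27.0% lower).

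Sperm genes differed among themselves on the tud female 72 h arrays. Of 12 tested probes of the sperm tail and sperm chromatin list, the 72 h contrast called 8, all higher. Their median was 1.84 over the 12, and 28.2% of all probes were called higher. The 12 include the members Mst35Ba and Tektin C. In tud males 6 of 13 tested probes of this list were called, 3 higher and 3 lower. On replicates 2 and 3 beta-Tubulin at 85D was at -7.10 and -1.77, with no value on replicate 1, and Mst87F, another sperm tail gene, was at -2.99, -4.61 and -3.59 on the 3 arrays, against -5.32 to -2.22 on the 27 tud arrays of other groups. Mst35Ba lay between -1.15 and -0.82 on the same 3 arrays. The part of residual or stray testis RNA in the 72 h values was not tested.

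**Figure D4:**
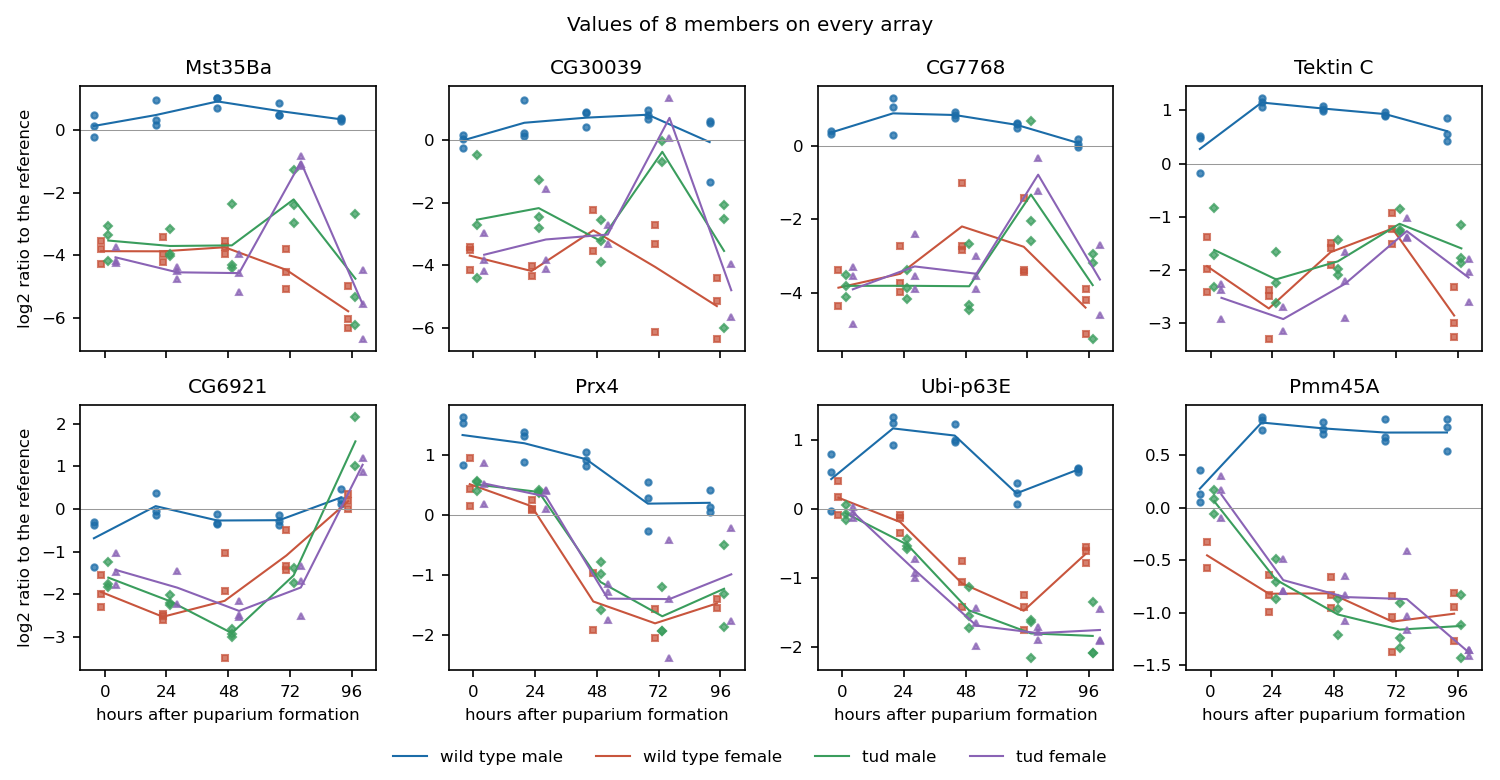
Log2 ratio to the common reference of 8 members on each array by hours APF, with 1 point per array and lines through the group means. In the top row Mst35Ba, CG30039 and CG7768 of both kinds of tud animal come up at 72 h toward the wild type males, and in the bottom row CG6921 of tud animals passes the wild type males at 96 h while Ubiquitin-63E and Pmm45A of all 4 kinds of animal lie within 0.5 of the reference at 0 h by their means.

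For CG6921 (bond) the gap between the sexes of wild type had closed by 96 h. The gene read -1.36, -0.31 and -0.38 in wild type males at 0 h, against -1.99, -1.54 and -2.30 in wild type females and -1.24, -1.83 and -1.76 in tud males. At 96 h it read 0.22, 0.47 and 0.12 in wild type males, against 0.18, 0.01 and 0.36 in wild type females, 2.15 and 1.02 in tud males, and 1.20 and 0.88 in tud females. At that hour the wild type sexes overlapped and all 4 tud values were higher than any wild type value.

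Its late change was 0.48 in wild type males and 2.27 in tud males, a difference of -1.79 ± 0.38 (SE; limma, adjusted p = 0.0025). Such a difference in late change between wild type and tud males was called in 6 of 44 members, 3 higher and 3 lower in wild type males, against 22.1% of 3720 probes (9.19% higher, 12.9% lower), with a median of 0.01 in the members and -0.06 in all probes. Of the 104 rising probes 16 were called, with a median of 0.30.

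Pmm45A moved the other way. It read 0.05, 0.13 and 0.36 in wild type males at 0 h, against 0.16, -0.06 and 0.08 in tud males, and 0.54, 0.77 and 0.85 in wild type males at 96 h, against -1.43, -1.11 and -0.83 in tud males. The values overlapped at 0 h and were well apart at 96 h, with a late change of 0.25 in wild type males and -0.67 in tud males and a difference of 0.91 ± 0.17 (SE; limma, adjusted p = 0.000406). Ubiquitin-63E read 0.79, 0.54 and -0.04 in wild type males at 0 h, against 0.05, -0.16 and -0.08 in tud males, and 0.59, 0.54 and 0.58 in wild type males at 96 h, against -2.09, -1.34 and -2.08 in tud males. Its late change was -0.35 in wild type males and -1.05 in tud males, a difference of 0.70 ± 0.19 (SE; limma, adjusted p = 0.016). Both genes had 0 h means within 0.5 of the reference in every kind of animal, and were wide apart at 96 h.

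RpS19b changed late by -0.32 in wild type males and 0.94 in tud males, a difference of -1.26 ± 0.42 (SE; limma, adjusted p = 0.0479). CG7768 changed by -0.28 in wild type males and 1.25 in tud males, a difference of -1.53 ± 0.67 (SE; limma, adjusted p = 0.133), and CR32657, a long non-coding RNA, by 0.48 and -0.60, a difference of 1.08 ± 0.46 (SE; limma, adjusted p = 0.122). The calls of CG7768 and CR32657 were lost without any of 17 and 11 single arrays.

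**Figure D5:**
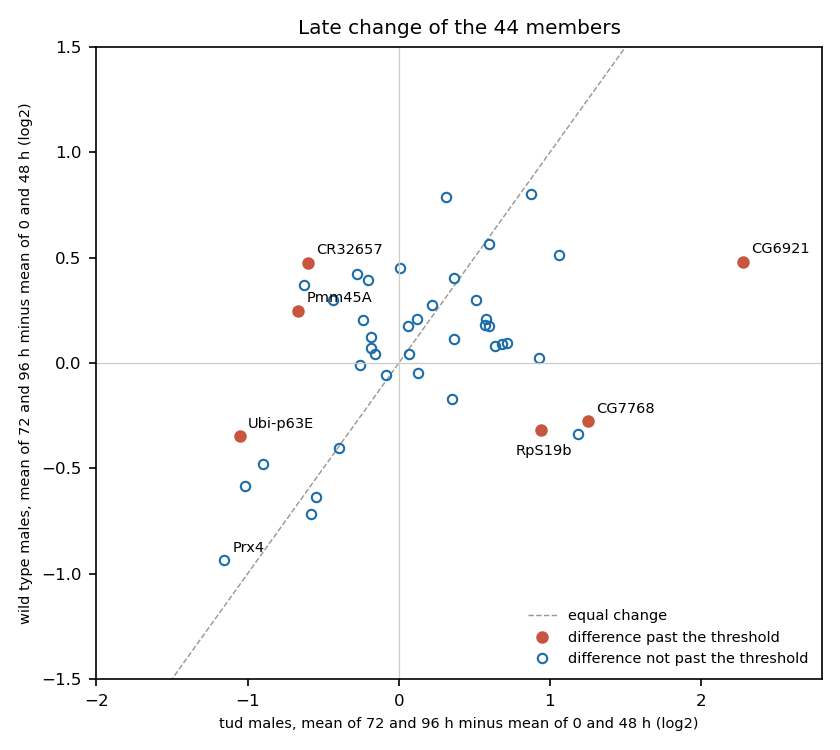
Late change (mean of 72 and 96 h minus mean of 0 and 48 h, log2) of the 44 members in wild type males, up the page, against that in tud males, across, with a dashed line of equal change. Filled points mark the 6 members whose difference was past the threshold, with CG6921 far right at 2.27 in tud males and 0.48 in wild type males, and Prx4 low in both at -0.94 in wild type males and -1.16 in tud males.

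Against wild type females the difference in late change, added after the values had been seen, was called in 9 of 44 members, 8 higher and 1 lower in wild type males, against 21.8% of 3881 probes (12.1% higher, 9.74% lower). The median was 0.52 in the members, 0.01 in all probes and 0.77 in the rising probes. Cappuccino was among the 8. It read 0.00, -0.05 and 0.00 in wild type males at 0 h, against -1.35, 0.65 and -0.97 in wild type females, and 0.62, 0.84 and 0.51 in wild type males at 96 h, against -0.81, -1.55 and -1.56 in wild type females. The sexes overlapped at 0 h and were apart at 96 h, a difference in late change of 1.20 ± 0.32 (SE; limma, adjusted p = 0.0177). CG8257 (CysRS-m), the mitochondrial cysteinyl-tRNA synthetase, changed late by 0.27 in wild type males and -0.83 in wild type females, and CG5343 (Bug22), a protein of cilia and flagella, by 0.30 and -0.75, with a call that was lost without any of 6 single arrays. The 2 comparisons of late change share the wild type male arrays.

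Among animals without a male germline the differences were small beside those from wild type males. The 5-hour mean of tud males minus that of tud females had a median of 0.04 over the 28 members with enough values, with a median SE of 0.16, and ran from -0.39 to 0.55. It was above 0 in 18 of the 28. Wild type females minus tud females had a median of -0.12 with a median SE of 0.17, ran from -1.24 to 0.59, and was above 0 in 11 of 28. In all probes the medians were 0.0003 and -0.02. Since tud males and wild type females entered the rule on the low side, these differences are a description.

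Further members with known roles lay nearer the middle of the set. Gasket ran from -0.13 to 1.04 in wild type males (median 0.68), against -4.50 to -0.53 in wild type females (median -1.58) and -2.48 to 0.68 in tud males (median -1.33). Bicaudal C ran from -0.09 to 0.96 in wild type males (median 0.47), against -2.78 to -0.59 in wild type females (median -1.30) and -2.55 to 0.63 in tud males (median -0.81). Neurotransmitter transporter-like, a transporter that acts in spermiogenesis, ran from -0.42 to 0.84 in wild type males (median 0.33), against -2.33 to 0.14 in wild type females (median -0.98) and -1.82 to 1.38 in tud males (median -1.03). In all 3 genes the ranges of wild type males and tud males overlapped although their medians were far apart.

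The rest of the set carries a CG number only or a name without a role given here. CG30039, CG31226, CG6652 and CG33293 were among the 10 members with the widest gaps, and CG32445, CG32240, CG17230, CG6527, CG15452, CG10999, CG13544, CG14835, CG4701 and Tyler were not called in any contrast within wild type males in the fit of all arrays. CG31226 had a value on 6 of 15 tud female arrays and on all 15 of wild type males, where it ran from -0.54 to 1.11 (median 0.60). CG33293 ran from -0.66 to 1.03 in wild type males (median 0.61), against -4.06 to -1.01 in wild type females (median -2.14) and -3.72 to -0.96 in tud males (median -1.79), with no overlap. No pair of members lay within 3 genes of each other in the RefSeq order.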

How the data were processed

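Whole-animal RNA was measured on 60 arrays of 15776 elements, of which 32 controls were left out. Values are used as deposited, as log2 of sample over common reference. The authors had applied a global loess to every array, with limma (version not given in the sources used here), after discarding elements with too few pixels above background in both channels, so a missing value is an element not kept. No background correction was stated and no scanner intensities were used here. The labels and the methods name opposite dyes for the sample, and the direction was read from roX1. For tud female 48 h the characteristics of replicate 1 repeat the text of the reference and those of replicate 2 give another hour, and both were kept by title. Group means were fitted to all arrays with limma 3.58.1 in R 4.3.3 (20 groups, empirical Bayes), after the fit had been tested on simulated data. Probes needed 2 or more values in each group compared, and the threshold was 0.15 on Benjamini-Hochberg adjusted p, a number the study applied to q values of another method. All tests leave out what the rule used. The number of arrays limits the precision.

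The members, the gene lists and the tests were chosen with earlier results of these data known. The naming rule took the 10 members with the widest smaller difference, up to 5 late changes each way among called members with all 15 wild type male values, members of the role lists, probes at the limits of the rule, and the 3 highest and 3 lowest called differences in late change from tud males. Members named beyond it were named after their values were seen. Names come from the study's published lists (2357 probes, all 44 members), and all 44 matched the RefSeq table by CG or CR number, 22 with another symbol. No sequences or positions are given. Alternatives were the arrays of the compared groups alone, a replicate block, median centring, quantile normalization, stricter and looser filters and limits, array weights, a threshold of 0.05, leaving out each array, and, added after the data were seen, leaving out the 3 tud arrays on which beta-Tubulin at 85D stood apart.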

Additional observations from a re-analysis of the deposited data

Results flagged for a closer look

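The change late in metamorphosis (72 and 96 h against 0 and 48 h) differed between wild type males and tud males, by a test of the difference itself in limma, for CG6921 (-1.79), CG7768 (-1.53), RpS19b (-1.26), Ubiquitin-63E (0.70), Pmm45A (0.91) and CR32657 (1.08), each as wild type minus tud on the log2 scale. It differed between wild type males and wild type females for CG6921 (-1.11), CG10616 (0.53), Pmm45A (0.66), CG17230 (0.95), CG5343 (1.05), CG8257 (1.10), cappuccino (1.20), Mst35Ba (1.28) and CG8368 (1.31), each as male minus female. CG6921 and Pmm45A differed in both comparisons. The call was lost without any 1 of 17 arrays for CG7768, 11 for CR32657, 11 for Mst35Ba, 6 for CG5343 and 5 for CG10616, and the other 10 differences kept it without any single array. After quantile normalization the call of CG6921 against wild type females was lost (adjusted p in limma 0.163). That of CG7768 was lost there too and with array weights. With 1 or more values in each group Mst35Ba lost its call (adjusted p in limma 0.151).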

How the results depend on the processing

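The number of members was 44, and became 4 with all 3 values required in each group, 109 with 1 value, 17 with the 48 h limit at 0.5 and 28 with both differences at 1.5 or more. It was 31 after quantile normalization and ran from 41 to 49 on leaving out single arrays. The counts of called members in wild type males were the least firm. Any change was called in 12, in 30 with the wild type male arrays alone, in 19 after quantile normalization and in 7 at 0.05 (8 to 15 without single arrays). The shares of all probes called were 76.1%, 84.5%, 76.9% and 68.2% in turn. The late change was called in 15, in 26 with those arrays alone and in 8 at 0.05 (12 to 16). Of all probes 64.7%, 71.6% and 55.1% were called in turn. The 24 h contrast was called in 6, in 19 with those arrays alone and in 2 at 0.05 (1 to 7). For all probes the shares were 22.6%, 29.6% and 14.2%. The 96 h minus 72 h contrast was called in 2, in 15 with those arrays alone, 10 after quantile normalization, 1 with all 3 values required, 7 with array weights and 0 at 0.05 in limma, where 1 member had an unadjusted p under 0.05 (1 to 3). Here the shares of all probes were 52.8%, 55.8%, 51.4%, 56.2%, 61.5% and 42.4% in turn. With all 3 values required far fewer members could be tested, and the counts became 12 of 12 for time in tud males (31; 28 to 34 without single arrays), 6 of 6 in tud females (24; 22 to 26), 9 in wild type females (33; 29 to 35), 2 for the late change against tud males (6; 4 to 8), 3 for that against wild type females (9; 6 to 10), and for 72 h 4 in tud females (14; 13 to 16), 10 in tud males (26; 19 to 27) and 5 in wild type females (13; 11 to 16). That filter called 95.4% of all probes for time in tud males, 95.4% in tud females and 95.1% in wild type females. It called 27.4% for the late change against tud males, and for 72 h 66.5%, 70.3% and 64.6% in the same order. Array weights gave 14 and 14 for the late change against tud males and against wild type females. With them the share of all probes called against tud males went from 22.1% to 46.4%. No such share is set beside the counts of 3 and 14 against wild type females, so nothing about the members is read from those counts. At 72 h in wild type females quantile normalization gave 22 and a threshold of 0.05 gave 7, against 59.2% and 44.7% of all probes. The median of tud males minus tud females ran from 0.00 to 0.12 and that of wild type females minus tud females from -0.15 to -0.07 without single arrays. Where a count changed other than through fewer probes, fewer arrays or a stricter threshold, the cause was not tested. Without the 3 tud arrays on which beta-Tubulin at 85D stood apart the planned counts were 13, 15, 7, 3, 33, 25, 35 and 7 in the order of any change, late, 24 h, 96 h minus 72 h, time in tud males, tud females and wild type females, and the late change against tud males. Of all probes 76.5%, 65.2%, 22.6%, 53.4%, 90.7%, 92.7%, 89.6% and 21.7% were then called in the same order. Of 252 values of single named results under alternatives 243 kept their call, 9 lost it and 0 changed sign.

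Deviations of same-numbered arrays correlated with r from -0.55 to 0.58 (90 pairs of arrays, median -9e-04, 29 over 0.1). At 48 h r was 0.10, 0.41 and 0.46 for wild type males with wild type females, by replicate. It was -0.38, 0.01 and -0.53 for tud males with tud females at that hour. Whether the replicate numbers pair the samples was not tested against differently numbered arrays. A fit with the replicate number as a block gave 11, 15, 6, 2, 31, 24, 31 and 6 in the same order, medians of 0.04 and -0.12, counts at 72 h of 14, 23 and 12 in tud females, tud males and wild type females, and 9 for the late change against wild type females. For the planned counts that fit called 76.1%, 64.8%, 22.7%, 52.7%, 89.9%, 92.5%, 89.3% and 22.1% of all probes in turn. At 72 h it called 58.1%, 60.6% and 55.5%.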
